A study of Mus musculus with 6 samples.

Results

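The 46 genes described here drive, copy DNA in, or restrain the cell division cycle, and were taken by gene symbol from a table of 24346 symbols, in which all 46 were present. They were sorted by role into 11 G1 genes, 9 S phase genes, 15 G2/M genes and 11 inhibitor and checkpoint genes. Expression was measured by RNA-seq in articular chondrocytes, the cells of joint cartilage, isolated as primary cells from ICR mice at postnatal day 4. In 3 control libraries the cells had no added semaphorin 4D, and in 3 Sema4D libraries they were stimulated with semaphorin 4D, a secreted and membrane-bound ligand of plexin-B receptors. Every library came from the same strain, tissue and age, and no genetic change was named. The sources used here give no dose, duration or medium and do not say whether replicates were separate cultures or animals, so the p-values measure spread among the deposited libraries only, and this may be technical.

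A cell enters the cycle in G1, when D-type cyclins activate the kinases CDK4 and CDK6 and the retinoblastoma protein releases E2F transcription factors. In S phase the MCM helicase unwinds DNA and PCNA holds the polymerases on it, and in G2 and mitosis cyclin A and cyclin B with CDK1 drive chromosome condensation, spindle assembly and segregation. The INK4 and CIP/KIP proteins hold the cyclin-dependent kinases back, and p53 links DNA damage and stress to that brake. In cartilage, dividing chondrocytes lengthen the growth plate and the cycle is left as they mature, while adult articular chondrocytes divide rarely.

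Levels are in FPKM (fragments scaled by transcript length and by library size), so those of different genes can be set side by side. Fold changes are differences in log2(FPKM + 1), Sema4D minus control, a scale that shrinks changes at low levels, and a gene was called at a limma adjusted p under 0.05. Depth, estimated from the steps between low FPKM values, was 1.25e+07 to 1.66e+07 fragments per library. Libraries correlated at Pearson's r of 0.983 to 0.991 within groups and 0.935 to 0.942 between them, across genes, which are not independent replicates. Of 10 chondrocyte markers all were at 34.5 FPKM or more in every library, and all 10 fell (100%, against 22.2% of all tested genes). Col2a1, the most abundant, did not pass after quantile normalization, at -0.07 with an adjusted p of 0.459, against -0.26 here. The summed level of the 10 went from between 14519 and 15688 FPKM in control to between 11678 and 12644 FPKM with Sema4D. The summed level of 6 macrophage and leukocyte markers was 22.9 to 30.4 FPKM in control and 19.6 to 22 FPKM with Sema4D, and the defining leukocyte gene Ptprc stayed between 0.0595 and 0.127 FPKM. Of this list 3 were tested and 2 fell (Lyz2 and Tyrobp), while the macrophage gene Adgre1, under the filter, read 0.0784 to 0.268 FPKM in control and 0.563 to 0.75 FPKM with Sema4D. Endothelial markers summed to between 0.0652 and 0.307 FPKM over the 6 libraries and erythroid markers to between 0.0322 and 0.207 FPKM, with Hbb-bs at 0. Of the 4 tested fibroblast and perichondrial markers 1 rose and 2 fell (sums of 1125 to 1201 and 1216 to 1274 FPKM). Pdgfra rose from a mean of 22.8 to 42.3 FPKM, while Dpt fell from 23.2 to 11.5 FPKM and Thy1 from 17.5 to 15.7 FPKM. Most of that sum was Col3a1, at means of 1092 and 1166 FPKM, which did not pass. Of the 2 tested muscle markers 1 fell (sums of 8.66 to 10.0 and 5.39 to 7.32 FPKM). The part of these markers in the cell cycle results was not tested. In bulk RNA, fewer cells of a type and less RNA per cell cannot be told apart.

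The cycle genes did not move as one block. With Sema4D the G2/M genes were lower as a group, by 10.9% to 22.8% where they passed the test, and the S phase genes went both ways. The D-type cyclin genes fell, but Ccnd2 only just past the threshold and not in most alternative fits. The inhibitor genes split into rises and falls of very unequal size. Rises ran from 14.5% for Mdm2 to 126% for Cdkn2b, and falls from 20.7% for Cdkn2c to 53.4% for Gadd45g. Of the 46 genes 45 had a mean of at least 1 FPKM and were tested, and Ccne2 was not. Among these 45, 14 rose (31.1%, against 24.5% of all 11603 tested genes) and 18 fell (40.0%, against 22.2% of all tested genes), and 13 did not pass. So 71.1% of them changed in one direction or the other, against 46.7% of all tested genes, and most changes were small: 29 of the 32 called genes had a ratio of means between 0.5 and 2. Only Cdkn2b and Gadd45g both passed and moved by at least 1 on the log2 scale, 4.44% of the 45, which is near the 4.33% of all tested genes. The libraries of the groups did not overlap for 34 of the 45 genes, against 56.6% of all tested genes: Sema4D was higher without overlap for 15 (29.6% of all tested genes) and lower for 19 (27.0% of all tested genes). Over all genes 52.4% of calls were rises, a share that became 38.8% after quantile normalization and 34.5% with each column scaled to the same sum. Under those scalings 13 and 12 of the cycle genes rose and 20 and 22 fell.

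**Figure D1:**
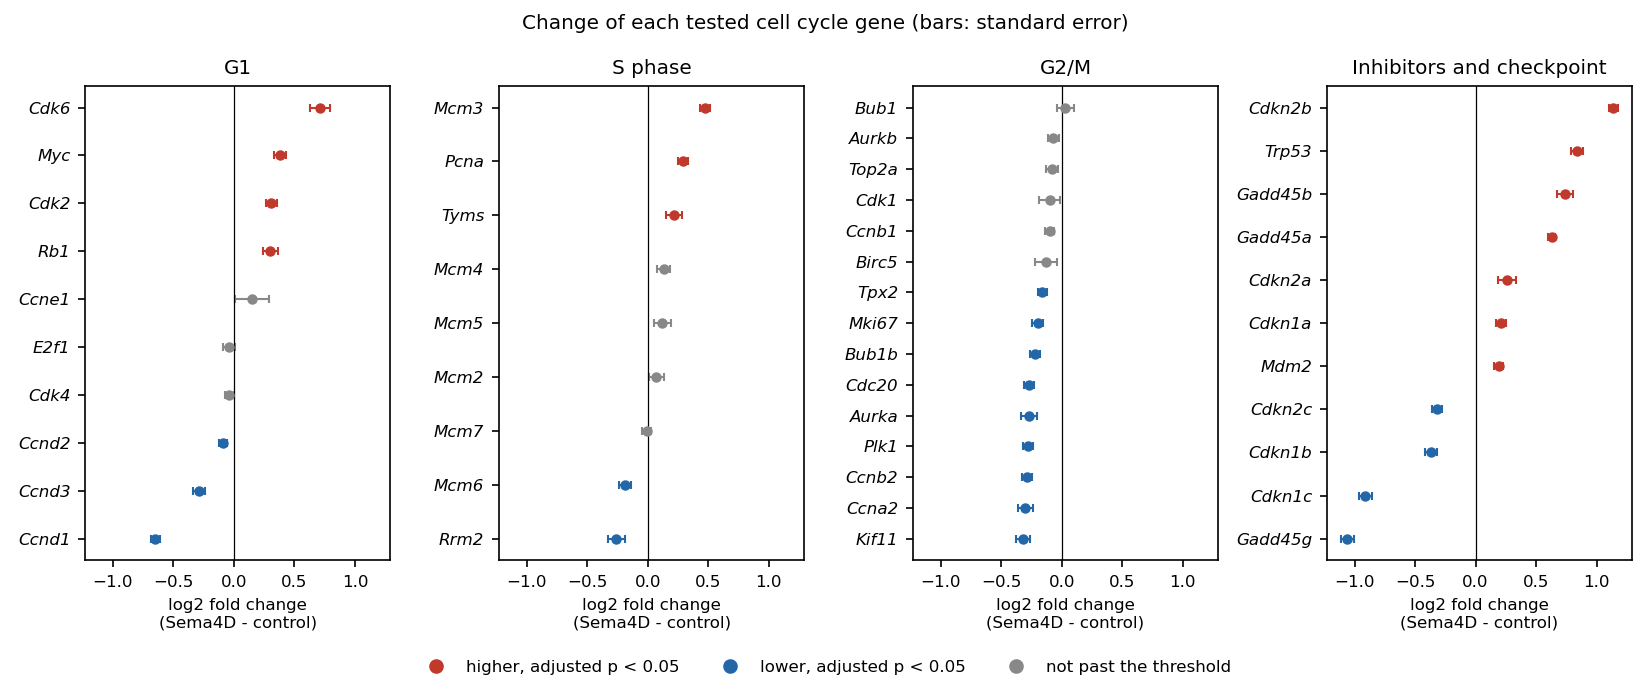
Fitted change of each of the 45 tested cell cycle genes by group, as the difference in log2(FPKM + 1) between Sema4D and control with its standard error (3 libraries per group). All G2/M genes except Bub1 lie left of 0, while the inhibitor genes spread from -1.06 (Gadd45g) to 1.14 (Cdkn2b).

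The G1 genes hold the entry machinery, and 4 of the 10 tested rose (40.0%, against 24.5% of all tested genes), 3 fell (30%, against 22.2%) and 3 did not pass. Their median change was 0.06, beside 0.01 for all tested genes. Ccnd1, the gene of cyclin D1, which couples growth factor signals to CDK4 and CDK6 (chromosome 7, 144929931 to 144939831 in mm10), read 46.8, 45.8 and 47.7 FPKM in control and 28.4, 31.0 and 29.1 FPKM after stimulation. Every Sema4D library was below every control library. The mean fell by 37.0% (log2 fold change -0.65, SE 0.0397, adjusted p = 3.47e-06).

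Ccnd3, the gene of cyclin D3, read 49.7, 56.0 and 54.7 FPKM in control and 42.8, 42.9 and 45 FPKM with Sema4D, again without overlap (-0.29, adjusted p = 0.00141). Ccnd2 was the most abundant D-type cyclin gene, at 90.1, 92.0 and 95.4 FPKM in control and 85.7, 87.1 and 88.3 FPKM with Sema4D. Its fall was close to the threshold (-0.09, adjusted p = 0.0484) and did not pass in 10 of the 15 alternative fits, where the adjusted p ranged from 0.00321 to 0.162 in all. The summed level of the D-type cyclin genes went from 193 ± 5.67 FPKM to 160 ± 2.88 FPKM (mean ± SD, n = 3 per group), and Ccnd2 made up 47.5% to 48.3% of it in control and 54.1% to 54.6% with Sema4D.

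The kinase genes went other ways. Cdk6, a partner of the D-type cyclins, was scarce, at 1.34, 1.09 and 1.13 FPKM in control, and reached 2.83, 2.35 and 2.59 FPKM with Sema4D, with no overlap. That is a ratio of means of 2.18 and a log2 fold change of 0.71 (SE 0.0837, adjusted p = 1.84e-04), which became 1.06 with a pseudocount of 0.1. Cdk4, the other partner, had the highest level of the 46 genes in the control libraries, at 207, 226 and 215 FPKM, and read 213, 203 and 215 FPKM with Sema4D. The groups overlapped, and its difference of -0.04 (adjusted p = 0.449) passed only after quantile normalization (-0.12, adjusted p = 0.03) and with columns scaled to the same sum (-0.12, adjusted p = 0.0278). Cdk2, the kinase of cyclins E and A, rose from 9.82 ± 0.454 to 12.4 ± 0.113 FPKM (0.31, adjusted p = 5.29e-04).

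Among the transcription regulators of G1, Myc, whose protein drives growth and cycle entry, rose from 18.1, 19.3 and 18.8 FPKM to 23.3, 25.5 and 25.5 FPKM (0.38, adjusted p = 2.04e-04). Rb1, which encodes the retinoblastoma protein that keeps E2F silent, rose from 3.78 ± 0.252 to 4.88 ± 0.2 FPKM (0.30, adjusted p = 0.00407). E2f1 itself read 10.7 ± 0.486 and 10.4 ± 0.31 FPKM (-0.04, adjusted p = 0.565), and the groups overlapped. Ccne1, the gene of cyclin E1, which starts replication with CDK2, had the largest standard error of the set (0.138), running from 2.49 to 4.15 FPKM in control and up to 4.33 FPKM with Sema4D, with overlap (0.15, adjusted p = 0.414). Its relative Ccne2 was under the filter, at 0.866, 0.853 and 0.803 FPKM in control and 0.926, 1.18 and 1.19 FPKM with Sema4D, and did not pass when every gene was tested (0.19, adjusted p = 0.0719). So of the cyclin genes of G1 the D type fell, Ccnd2 only close to the threshold, and the E type did not pass.

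The Cdk4 promoter is shown because it holds more E-box matches than any other window of these genes. CACGTG, the E-box core that MYC and other basic helix-loop-helix proteins recognise, is in capitals.

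Cdk4 promoter, chr10:127063285-127063584, plus strand: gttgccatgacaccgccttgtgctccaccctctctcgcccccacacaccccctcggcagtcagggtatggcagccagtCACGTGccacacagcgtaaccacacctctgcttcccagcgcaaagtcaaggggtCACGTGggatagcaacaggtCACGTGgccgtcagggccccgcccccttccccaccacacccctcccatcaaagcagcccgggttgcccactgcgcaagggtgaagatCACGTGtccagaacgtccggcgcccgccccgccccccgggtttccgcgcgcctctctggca

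The window of Cdk4 holds 4 matches, at 172, 118, 98 and 11 bases before the annotated start, while 7.15% of all 32851 promoter windows of that length hold at least 1. The windows of Cdk6, Tyms, Gadd45b and Trp53, which rose, and of Cdkn2c and Gadd45g, which fell, hold 1 match each.

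Of the 9 S phase genes 3 rose (33.3%, against 24.5% of all tested genes), 2 fell (22.2%, the same share as of all tested genes) and 4 did not pass, with a median of 0.12. Mcm3, a subunit of the replicative helicase (chromosome 1, 20802966 to 20820312), read 10.9, 11.1 and 10.9 FPKM in control and 14.9, 16.2 and 15.6 FPKM with Sema4D. The control values lay close together and below all Sema4D values (0.47, SE 0.042, adjusted p = 3.42e-05). Mcm6, of the same ring, fell instead, from 19.8, 19.1 and 19.4 FPKM to 17.5, 17.6 and 15.6 FPKM (-0.19, adjusted p = 0.0137).

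The other 4 helicase subunit genes did not pass. Mcm2 stood at 11.7 ± 0.357 and 12.3 ± 1.11 FPKM, Mcm4 at 10.1 ± 0.352 and 11.2 ± 0.663 FPKM, Mcm5 at 6.19 ± 0.513 and 6.83 ± 0.519 FPKM, and Mcm7 at 21.5 ± 0.389 and 21.3 ± 0.431 FPKM. Of these, Mcm4 had no overlap between groups and an adjusted p of 0.0746, or 0.0489 without Sema4D replicate 1. The 6 proteins form one ring with a copy of each, yet Mcm3 made up 13.4% to 13.9% of their summed FPKM in control and 18% to 19.1% with Sema4D, and Mcm6 went from between 24% and 25.1% down to 18.5% to 21.1%. The sum was 79.8 ± 1.02 FPKM in control and 84.1 ± 1.02 FPKM with Sema4D. The summed FPKM of all genes was higher with Sema4D too, at 518901 to 527492 against 492708 to 494123 in control. Family sums given here were not scaled for that difference, so the small rise of this one is not read as a change of the helicase genes.

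Pcna, the sliding clamp of DNA polymerases, was the most abundant S phase gene and rose from 44.3, 41.5 and 44.8 FPKM to 52.3, 56.1 and 51.9 FPKM (0.29, adjusted p = 7.54e-04). Both enzymes of nucleotide supply in the set were nearer to the threshold and went opposite ways. Tyms, the thymidylate synthase gene, rose from 4.10 ± 0.36 to 4.95 ± 0.194 FPKM (0.22, adjusted p = 0.024), and Rrm2, a subunit of ribonucleotide reductase, fell from 18.7 ± 1.21 to 15.4 ± 1.41 FPKM (-0.26, adjusted p = 0.0146). The call of Tyms was lost without control replicate 3 (adjusted p = 0.0711), without Sema4D replicate 3 (0.0747), after quantile normalization (0.062) and with scaled columns (0.0824). That of Rrm2 was lost without control replicate 1 (0.0501) or control replicate 3 (0.0522). A Tyms pseudogene, Tyms-ps, was listed at 0 in every library.

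G2/M genes moved mostly one way. Of 15 tested, 9 fell (60.0%, against 22.2% of all tested genes), none rose, and 14 had a value below 0, with a median of -0.20. The falls were shallow, and the largest was that of Kif11, the spindle motor that pushes the poles apart (chromosome 19, 37376382 to 37421863), at 7.16, 6.88 and 7.20 FPKM in control and 5.22, 5.90 and 5.27 FPKM with Sema4D. The groups did not overlap and the mean fell by 22.8% (-0.32, SE 0.0561, adjusted p = 0.00174).

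Cyclin genes of this stage came next. Ccna2, the gene of cyclin A2, read 19.6, 17.6 and 18.1 FPKM in control and 14.0, 16.0 and 14.5 FPKM with Sema4D (-0.30, adjusted p = 0.00371). Ccnb2, the gene of cyclin B2 (chromosome 9, 70407689 to 70421554), was very even in control, at 22.7, 22.8 and 22.9 FPKM, and fell to 18.9, 19 and 17.5 FPKM (-0.29, SE 0.0406, adjusted p = 4.95e-04). Ccnb1, the gene of cyclin B1, did not overlap between groups either, at 19.7 to 20.7 FPKM and 18.1 to 19.1 FPKM, but stayed just outside the threshold (-0.10, adjusted p = 0.0548). It passed with a mean FPKM of at least 5 (adjusted p = 0.0445), median-ratio scaling (0.0414), quantile normalization (0.00683) and scaled columns (0.00472).

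Mitotic kinases and checkpoint genes followed. Plk1, a kinase of mitotic entry and the spindle poles, fell from 19, 19.2 and 20.6 FPKM to 15.7, 15.7 and 16.5 FPKM (-0.28, adjusted p = 9.85e-04). Aurka, the spindle pole kinase, fell from 12.3 ± 0.304 to 10.1 ± 1.07 FPKM (-0.27, adjusted p = 0.0123), and Tpx2, which activates it, from 17.6 ± 0.434 to 15.6 ± 0.0669 FPKM (-0.16, adjusted p = 0.00705). Cdc20, which turns on the anaphase-promoting complex, fell from 32.7 ± 0.83 to 27.1 ± 1.47 FPKM (-0.27, adjusted p = 0.00144). Bub1b, a spindle checkpoint gene, fell from 9.05 ± 0.25 to 7.61 ± 0.0993 FPKM (-0.22, adjusted p = 0.00291), and its paralogue Bub1 read 3.63 ± 0.286 and 3.72 ± 0.24 FPKM (0.03, adjusted p = 0.776, with a value below 0 after quantile normalization and with scaled columns).

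Mki67, whose protein Ki-67 marks dividing cells, read 11.9, 11.5 and 11.9 FPKM in control and 9.66, 10.7 and 9.92 FPKM with Sema4D. The groups did not overlap and the mean fell by 14.1% (-0.20, SE 0.0471, adjusted p = 0.00832). Cdk1, the mitotic kinase, did not pass: it stood at 13.9, 12.9 and 16.8 FPKM in control and 12.8, 13.7 and 13.7 FPKM with Sema4D, with control replicate 3 above the rest (-0.10, adjusted p = 0.341). Top2a, which untangles chromosomes, Aurkb, the centromere kinase, and Birc5, its partner survivin, overlapped between groups, at -0.08 (adjusted p = 0.246), -0.07 (0.258) and -0.13 (0.261). Without Sema4D replicate 2, which had the highest Sema4D value of Top2a and Birc5, both passed (adjusted p = 0.0374 and 0.0269), and with scaled columns Top2a and Aurkb did (0.0393 each).

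**Figure D2:**
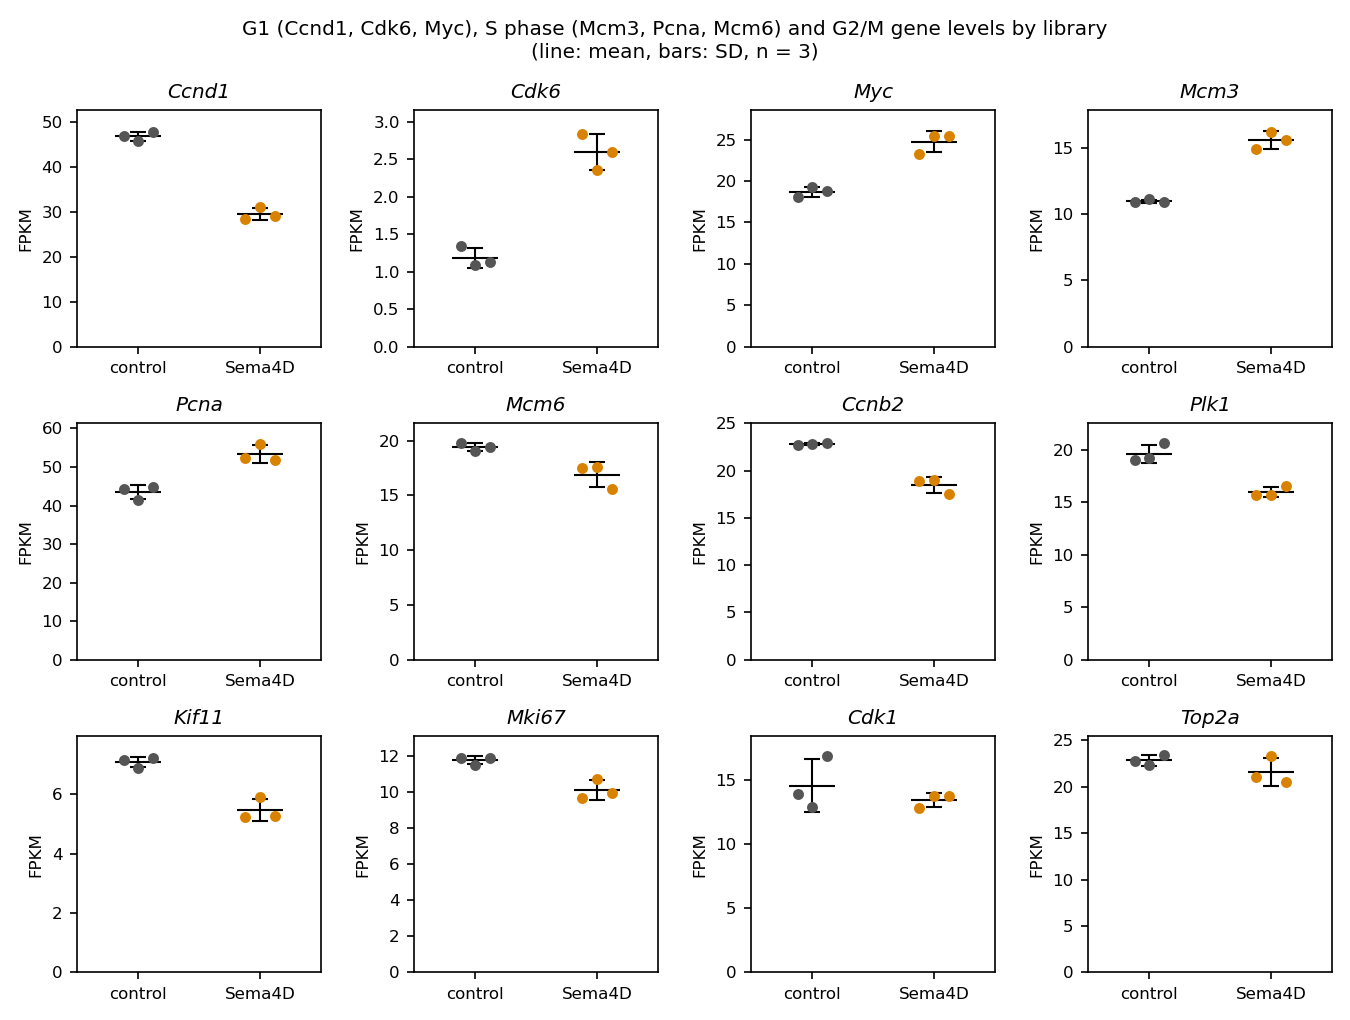
FPKM of 12 cell cycle genes in each library (points, 3 per group), with the mean and SD. Ccnd1, Mcm6 and the G2/M genes Ccnb2, Plk1, Kif11 and Mki67 are lower in every Sema4D library, Cdk6, Myc, Mcm3 and Pcna are higher in every one, and Cdk1 and Top2a overlap.

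Promoters of G2/M genes are known for a pair of elements, the cell cycle homology region (CHR), which the MuvB complex binds, and CCAAT boxes, which NF-Y binds. Windows of 250 bases before to 50 bases after each annotated start (RefSeq, GRCm38.p6, the assembly of mm10) were present for 36 of the 46 genes, in 41 windows. The 10 genes without a window were Ccnd1, Ccnd2, Ccne2, Myc, Rb1, Mcm4, Ccna2, Aurkb, Tpx2 and Cdkn1c, so no motif result covers them. They were searched on both strands for the CHR (TTTGAA or TTCGAA), the CCAAT box (CCAAT), an E2F core (GCGGGAA) and the E-box (CACGTG), of which none contains another. A CHR match together with a CCAAT match was present in 10 of 12 G2/M windows (83.3%), in 2 of 9 S phase windows (22.2%), in 0 of 7 G1 windows and in 0 of 13 inhibitor windows, against 7.52% of all 32851 windows. CHR matches, with or without a CCAAT match, were in 83.3% of G2/M windows, the same 10 windows, against 19.2% of all. CCAAT matches were in 91.7% of G2/M windows against 37.4% of all. They were not particular to G2/M, being in 88.9% of S phase, 61.5% of inhibitor and 28.6% of G1 windows. E2F core matches were in 3 of 9 S phase windows (that of Mcm3 and both of Mcm7) and in 0 of 12 G2/M windows, against 4.6% of all. Other E2F-like sequences were not searched.

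The next 5 windows are printed in the direction of transcription with every match in capitals. Ccnb2, Plk1, Cdc20 and Kif11 show the CHR and CCAAT pair in genes that fell, and Mcm3 shows CCAAT boxes with an E2F core in the S phase gene that rose most.

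Ccnb2 promoter, chr9:70421505-70421804, minus strand: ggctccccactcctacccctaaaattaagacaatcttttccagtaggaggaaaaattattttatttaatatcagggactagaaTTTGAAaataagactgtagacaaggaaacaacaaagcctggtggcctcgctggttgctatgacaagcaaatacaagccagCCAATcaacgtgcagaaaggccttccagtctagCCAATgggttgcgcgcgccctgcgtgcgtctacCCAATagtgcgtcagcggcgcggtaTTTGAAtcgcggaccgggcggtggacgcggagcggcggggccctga

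Plk1 promoter, chr7:122159185-122159484, plus strand: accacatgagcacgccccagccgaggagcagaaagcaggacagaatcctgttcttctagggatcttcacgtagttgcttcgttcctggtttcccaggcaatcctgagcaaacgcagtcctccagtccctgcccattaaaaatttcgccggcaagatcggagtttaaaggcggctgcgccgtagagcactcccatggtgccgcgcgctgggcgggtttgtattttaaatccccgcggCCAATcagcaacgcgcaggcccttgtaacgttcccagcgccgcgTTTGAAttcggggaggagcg

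Cdc20 promoter, chr4:118437294-118437593, minus strand: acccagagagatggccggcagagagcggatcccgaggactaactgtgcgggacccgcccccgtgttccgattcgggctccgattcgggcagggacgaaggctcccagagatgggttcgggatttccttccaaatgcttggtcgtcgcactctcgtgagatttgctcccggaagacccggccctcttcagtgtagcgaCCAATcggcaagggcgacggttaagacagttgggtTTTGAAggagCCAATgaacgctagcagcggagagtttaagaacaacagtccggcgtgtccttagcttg

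Kif11 promoter, chr19:37376132-37376431, plus strand: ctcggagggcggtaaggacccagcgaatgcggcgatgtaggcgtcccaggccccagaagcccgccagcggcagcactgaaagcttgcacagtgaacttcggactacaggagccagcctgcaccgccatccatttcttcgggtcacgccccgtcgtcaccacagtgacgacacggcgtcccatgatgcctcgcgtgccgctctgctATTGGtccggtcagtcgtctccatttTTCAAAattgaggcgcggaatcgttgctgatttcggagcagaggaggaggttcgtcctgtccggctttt

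Mcm3 promoter, chr1:20820263-20820562, minus strand: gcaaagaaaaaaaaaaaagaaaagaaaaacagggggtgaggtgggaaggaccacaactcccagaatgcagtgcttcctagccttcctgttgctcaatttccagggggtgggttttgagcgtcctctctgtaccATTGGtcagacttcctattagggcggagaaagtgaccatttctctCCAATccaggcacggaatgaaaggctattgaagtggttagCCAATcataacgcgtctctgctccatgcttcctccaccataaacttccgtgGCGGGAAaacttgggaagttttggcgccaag

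In Ccnb2, 3 CCAAT boxes begin 87, 54 and 21 bases before the start and CHR matches 167 bases before and 4 bases after it. Cdc20 has its CHR match 18 bases before the start between CCAAT boxes at 53 and 8 bases before it, and Kif11 has a CCAAT box at 45 and a CHR match at 19 bases before the start, both read on the opposite strand. The windows of Top2a, Cdk1 and Bub1 also held both elements, with 6, 3 and 2 CCAAT matches, and those genes did not pass the test. Birc5 and Ccnb1, which did not pass either, lacked a CHR match in this window. A match is a description of the letters and not of binding.

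**Figure D3:**
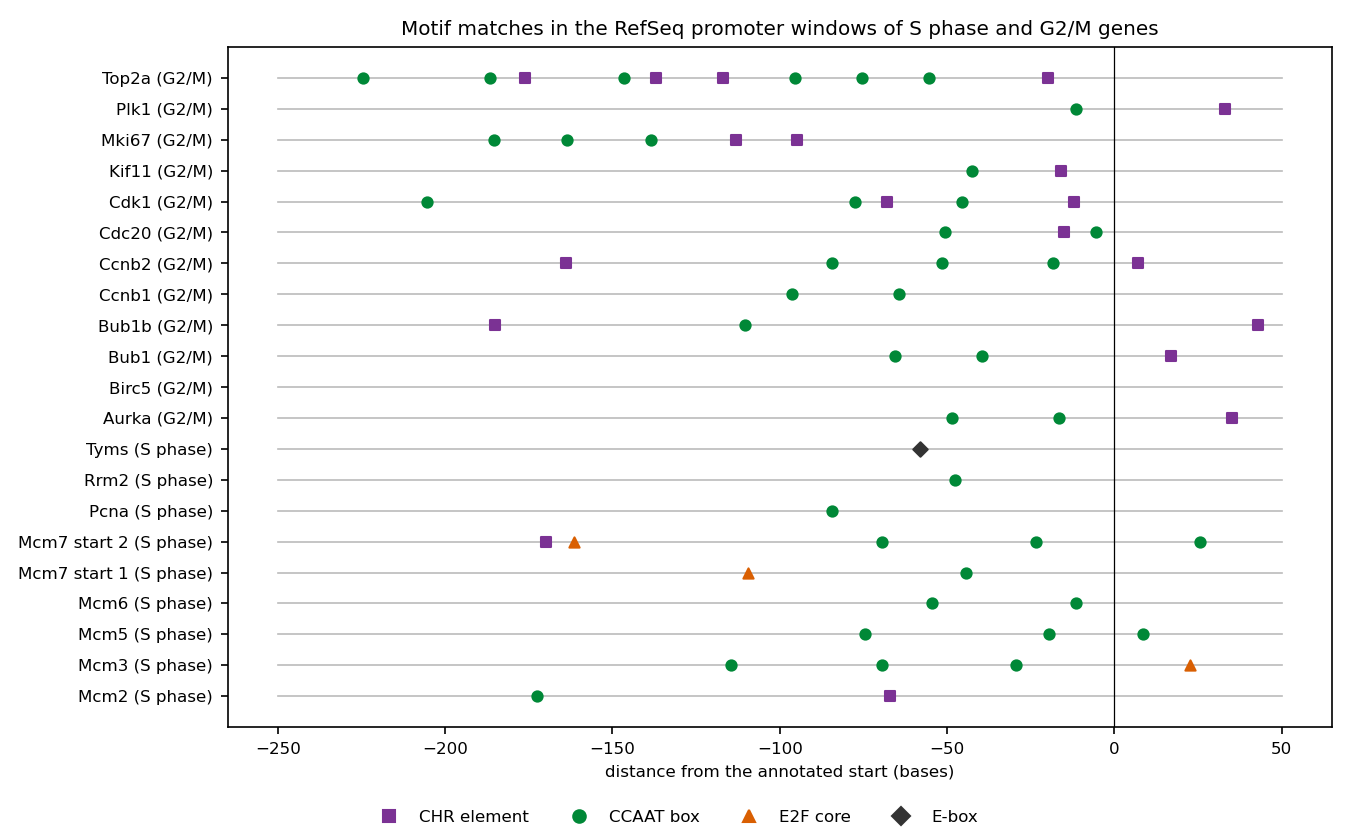
Positions of CHR, CCAAT, E2F core and E-box matches in the 21 promoter windows of S phase and G2/M genes, from 250 bases before to 50 bases after the annotated start (0). Of the 12 G2/M windows 10 carry a CHR and a CCAAT match, and the S phase windows carry mostly CCAAT matches.

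All 11 inhibitor and checkpoint genes passed the test, 7 as rises (63.6%, against 24.5%) and 4 as falls (36.4%, against 22.2%). Directions divided families from within. The strongest rise was that of Cdkn2b, the INK4 inhibitor of CDK4 and CDK6 known as p15 (chromosome 4, 89306289 to 89311032), at 24.2, 26.0 and 25.1 FPKM in control and 55.4, 55.9 and 58.7 FPKM with Sema4D. The lowest Sema4D library was far above the highest control library, at a ratio of means of 2.26 (log2 fold change 1.14, SE 0.0384, adjusted p = 9.32e-08).

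Its neighbour Cdkn2a, 11669 bases away, encodes the INK4 inhibitor p16 and the p53 activator p19ARF from different first exons, which a gene value cannot separate. Cdkn2a was low, at 8.91, 7.23 and 7.36 FPKM in control and 9.39, 9.30 and 9.98 FPKM with Sema4D (0.26, adjusted p = 0.0205). That call was lost without control replicate 2 or 3 (adjusted p = 0.0685 each), without Sema4D replicate 3 (0.065) and with scaled columns (0.0659). Cdkn2c, the INK4 gene of p18, went down, from 24.6, 23.0 and 23.6 FPKM to 18.8, 19.4 and 18.2 FPKM (-0.32, adjusted p = 2.81e-04). With Cdkn2d, which is no member of the set, the 4 INK4 genes summed to 68.2 ± 0.586 FPKM in control and 95.8 ± 2.84 FPKM with Sema4D, and Cdkn2b took 35.2% to 38.4% of that sum in control and 58.8% to 59.3% with Sema4D.

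CIP/KIP genes, whose proteins bind a wider range of cyclin-kinase pairs, also parted. Cdkn1c, the p57 gene, an inhibitor expressed by chondrocytes that leave the cycle in the growth plate (chromosome 7, 143458339 to 143461059), fell from 184, 194 and 176 FPKM to 95, 92.6 and 106 FPKM. No Sema4D library came near a control library, and the mean fell by 47.0% (-0.91, SE 0.0554, adjusted p = 3.34e-06). Cdkn1b, the p27 gene, linked to quiescence, fell from 25.1, 28.0 and 27.2 FPKM to 20, 21.2 and 20.3 FPKM (-0.37, adjusted p = 3.30e-04). Cdkn1a, the p21 gene and a classical p53 target, rose from 104, 114 and 112 FPKM to 128, 123 and 129 FPKM (0.21, SE 0.0389, adjusted p = 0.00279).

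In control libraries Cdkn1c was the most abundant of the 3, with 55.9% to 58.7% of their summed FPKM, and in Sema4D libraries Cdkn1a was, with 50.6% to 52.7%. The order of the pair held in every library of its group. Their sum with Cdkn1b went from 321 ± 13 to 245 ± 9.29 FPKM, while the INK4 sum went up.

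GADD45 proteins are small stress sensors that bind CDK1, PCNA and MAP kinase kinases, and their genes split as well. Gadd45a rose from 46.8, 47.5 and 45.7 FPKM to 73.9, 72.1 and 71.6 FPKM (0.63, SE 0.0297, adjusted p = 7.26e-07), and Gadd45b, a gene induced by NF-kappaB and TGF-beta, from 19.9, 19.5 and 18.5 FPKM to 34.6, 34.9 and 29.6 FPKM (0.74, adjusted p = 2.71e-05). Gadd45g (chromosome 13, 51846675 to 51848475) fell from 33.2, 36.8 and 36.5 FPKM to 15.6, 17.6 and 16.4 FPKM, the largest fall of the set (-1.06, SE 0.056, adjusted p = 1.45e-06). No group overlapped for any of the 3. Gadd45g was 33.2% to 36.3% of the family's summed FPKM in control and 12.5% to 14.1% with Sema4D.

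Trp53, the gene of p53 (chromosome 11, 69580348 to 69591873), read 57.1, 57.8 and 62.7 FPKM in control and 103, 105 and 113 FPKM with Sema4D. Its groups were far apart, at a ratio of means of 1.80 (0.84, SE 0.0484, adjusted p = 2.41e-06). Mdm2, a p53 target whose protein degrades p53, rose less, from 26.7 ± 0.755 to 30.5 ± 0.503 FPKM (0.19, adjusted p = 0.00236).

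**Figure D4:**
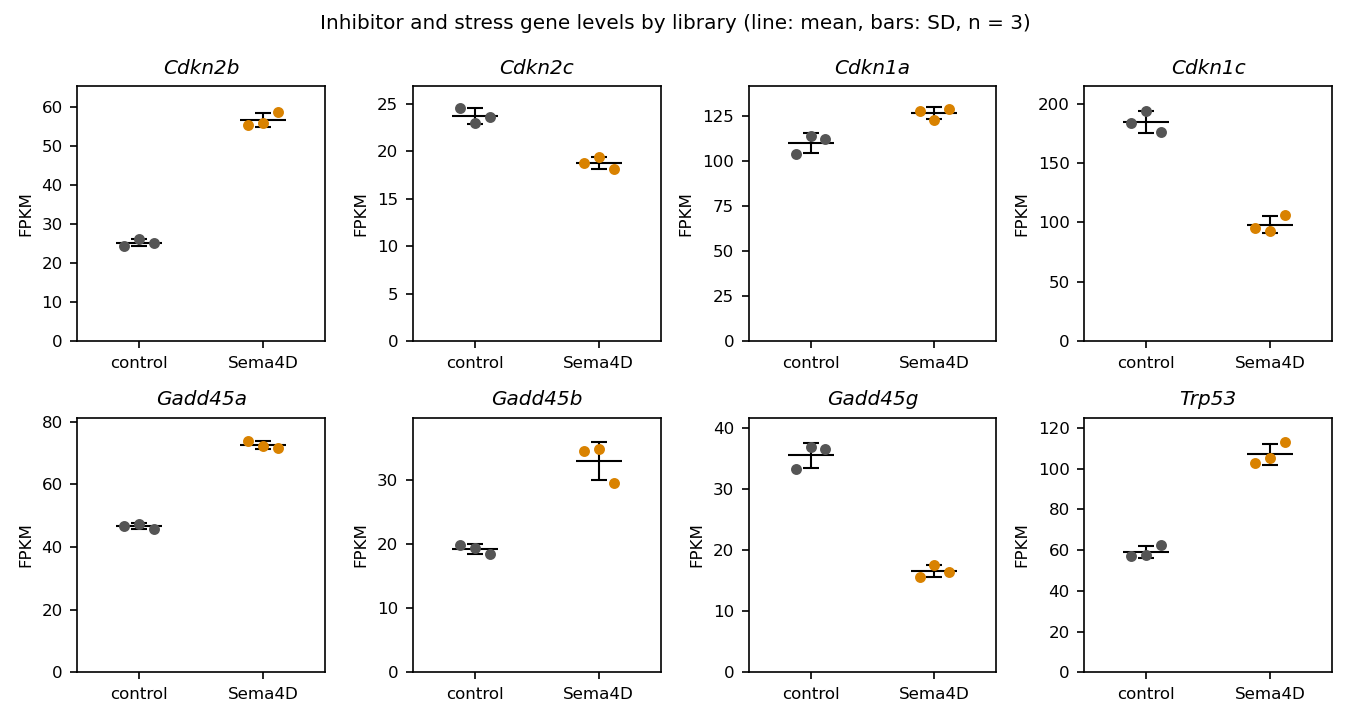
FPKM of 8 inhibitor and stress genes in each library (points, 3 per group), with the mean and SD. Cdkn2b, Gadd45a, Gadd45b, Trp53 and, by less, Cdkn1a are higher in every Sema4D library, while Cdkn1c, Cdkn2c and Gadd45g are lower in every one.

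The promoters of the genes with the largest rise and the largest fall of the set are shown for comparison, with matches of the same motifs in capitals.

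Cdkn2b promoter, chr4:89310983-89311282, minus strand: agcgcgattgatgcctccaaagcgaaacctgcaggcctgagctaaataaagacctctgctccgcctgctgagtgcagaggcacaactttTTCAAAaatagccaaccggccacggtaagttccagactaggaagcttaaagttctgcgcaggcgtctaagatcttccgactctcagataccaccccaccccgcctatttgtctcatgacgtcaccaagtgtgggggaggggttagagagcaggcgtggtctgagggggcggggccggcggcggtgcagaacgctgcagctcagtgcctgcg

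Gadd45g promoter, chr13:51846425-51846724, plus strand: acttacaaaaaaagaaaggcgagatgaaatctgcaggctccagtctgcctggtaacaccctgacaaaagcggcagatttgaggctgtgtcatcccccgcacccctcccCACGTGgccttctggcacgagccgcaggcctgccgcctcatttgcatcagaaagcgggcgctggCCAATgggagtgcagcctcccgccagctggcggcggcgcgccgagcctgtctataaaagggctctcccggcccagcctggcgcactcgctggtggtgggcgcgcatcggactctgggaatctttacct

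Cdkn2b holds 1 CHR match, read on the opposite strand 161 bases before the start, and no CCAAT box, while Gadd45g holds 1 CCAAT box 78 bases and 1 E-box 142 bases before it. Neither window holds the CHR and CCAAT pair of the G2/M genes.

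Further genes of the pathway were examined by stage. Of 53 further mitosis genes 25 fell (47.2%, against 22.2% of all tested genes) and 1 rose (1.89%, against 24.5%), with a median of -0.16. Cdc25b, a phosphatase that activates CDK1, fell from 10.9 ± 0.643 to 6.81 ± 0.244 FPKM (-0.60, adjusted p = 3.43e-05), Kif20a, a motor of cytokinesis, from 21.5 ± 0.754 to 15.9 ± 0.432 FPKM (-0.41, adjusted p = 6.35e-05), and the condensin gene Smc4 from 29.4 ± 0.809 to 23.9 ± 0.639 FPKM (-0.29, adjusted p = 3.14e-04). The 1 rise was that of Cdc25a (0.31), a phosphatase that also acts at the entry into S phase, named after its value was seen. Both CHR and CCAAT matches were in 63.0% of the 46 windows of these genes.

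Replication licensing and fork genes moved little: 7 of 45 tested rose (15.6%, against 24.5%), 1 fell (2.22%, against 22.2%) and 37 did not pass, with a median of 0.03. Cdt1, which loads the MCM helicase onto origins, rose from 5.78 ± 0.279 to 9.16 ± 0.616 FPKM (0.58, adjusted p = 7.48e-05), and the primase-polymerase subunit gene Pola2 from 5.20 ± 0.151 to 6.58 ± 0.341 FPKM (0.29, adjusted p = 0.00242). Rpa1, which coats single-stranded DNA, fell from 23.3 ± 0.802 to 20.4 ± 0.717 FPKM (-0.18, adjusted p = 0.00667). E2F core matches were in 41.3% of the 46 windows of this list and in 2.17% of those of the mitosis list.

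Of 9 tested E2F and pocket protein genes 33.3% rose and 22.2% fell, near the 24.5% and 22.2% of all tested genes. The 3 rises were those of E2f3 (0.26, adjusted p = 0.00171), E2f4 (0.21, adjusted p = 0.00188) and their dimer partner Tfdp1 (0.14, adjusted p = 0.0126), and the other 2 called genes fell. Tfdp1 did not pass after quantile normalization (0.07, adjusted p = 0.129) or with scaled columns (0.06, adjusted p = 0.257). Of 19 genes of the ubiquitin ligases that clear cycle proteins 3 rose (15.8%, against 24.5% of all tested genes) and 5 fell (26.3%, against 22.2%). The rises included the scaffold gene Cul1 (0.21, adjusted p = 0.00202), and the falls Skp1a (-0.17, adjusted p = 0.00348) and Cdc16, of the anaphase-promoting complex (-0.18, adjusted p = 0.00169).

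Damage checkpoint genes showed 1 rise and 1 fall among 17 tested (5.88% each, against 24.5% and 22.2% of all tested genes). The replication stress kinase gene Atr rose from 3.94 ± 0.234 to 5.39 ± 0.124 FPKM (0.37, adjusted p = 7.83e-04), and Wee1, the kinase that holds CDK1 inactive, fell narrowly (-0.25, adjusted p = 0.0458, and not past the threshold when any library other than Sema4D replicate 2 was left out). Topbp1, an activator of ATR, read 9.47 ± 0.331 and 10.6 ± 0.827 FPKM (0.15, adjusted p = 0.0671).

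Among 20 tested p53 target genes 11 rose (55.0%, against 24.5%) and 4 fell (20%, against 22.2%), with a median of 0.15. The death receptor gene Fas, also a target of NF-kappaB, rose most, from 10.7 ± 0.218 to 86.8 ± 2.84 FPKM (2.91, adjusted p = 2.14e-10). The antiproliferative gene Btg2 rose from 8.11 ± 0.1 to 14.3 ± 0.629 FPKM (0.75, adjusted p = 2.68e-06) and the kinase gene Plk2 from 21.0 ± 0.85 to 34.5 ± 0.64 FPKM (0.69, adjusted p = 1.92e-06). The 4 falls, named after their values were seen, were Sesn1 (-0.79), Perp (-0.78), Gdf15 (-0.33) and Sesn2 (-0.16). In a last list of 7 other inhibitor and antiproliferative genes 2 rose (28.6%, against 24.5%), 1 fell (14.3%, against 22.2%) and 4 did not pass. Btg1 rose from 24.3 ± 0.789 to 54.3 ± 0.464 FPKM (1.13, adjusted p = 4.37e-08). Ccng2, an atypical cyclin of arrested cells, rose (0.50, adjusted p = 3.06e-05), and Cdkn3 fell (-0.31, adjusted p = 0.0262).

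**Figure D5:**
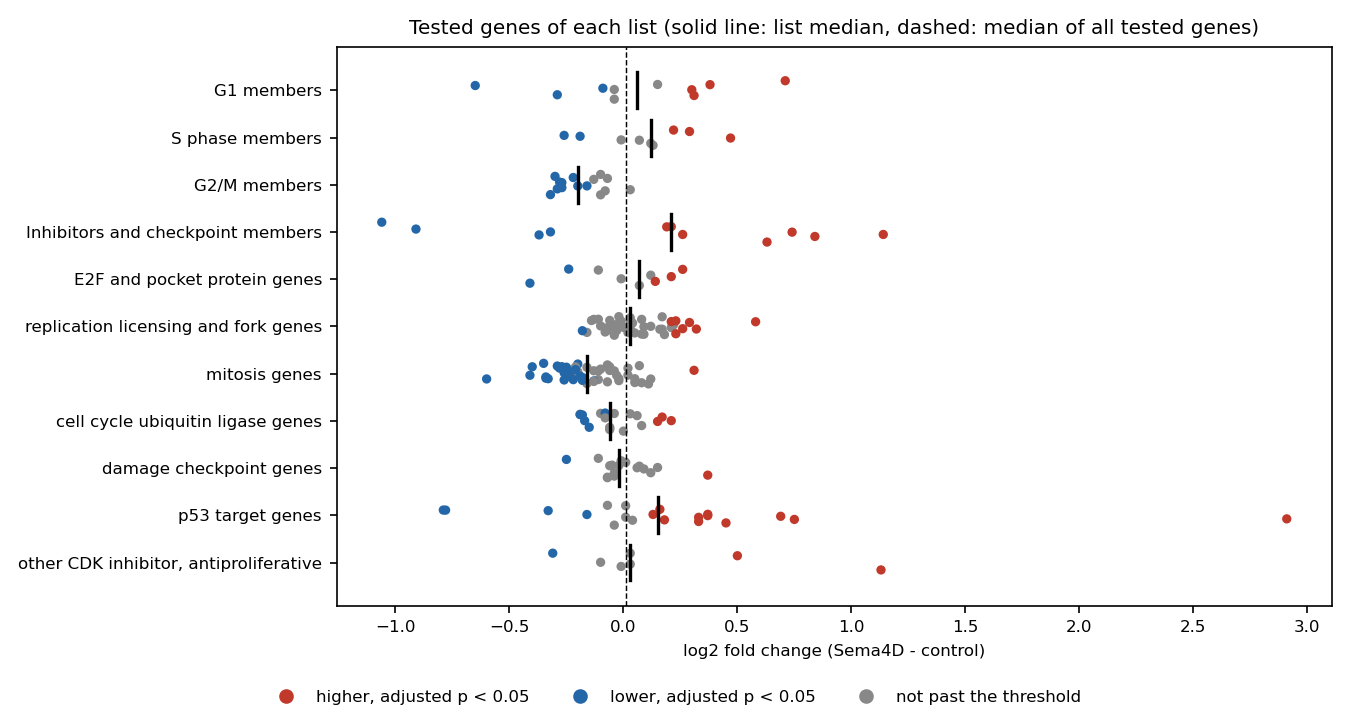
Change of each tested gene in the 4 groups of cell cycle genes and in 7 further lists of the pathway, as the difference in log2(FPKM + 1) between Sema4D and control. The G2/M and mitosis lists have medians of -0.20 and -0.16, left of the dashed line at 0.01 for all tested genes, and the p53 target list reaches 2.91 with Fas.

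The libraries were also compared one by one. Taking each gene's difference from its control mean, the median over the 15 G2/M genes was -0.17, -0.15 and -0.23 in the 3 Sema4D libraries and between -0.03 and 0.03 in the control libraries. For the 53 other mitosis genes it was -0.18, -0.12 and -0.18, and for the 9 S phase genes 0.06, 0.11 and 0.20. In these groups of 15 and 9 genes Sema4D replicate 3 thus had both the lowest G2/M and the highest S phase median. The larger lists did not repeat this. Sema4D replicates 1 and 3 were equal for the mitosis genes. The 45 replication licensing and fork genes read 0.02, 0.06 and 0.05 in Sema4D replicates 1, 2 and 3.

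Exons of 16 of the 46 genes share bases with another gene in GENCODE M21, and without the strand setting such reads cannot be told apart. For Cdc20 the neighbour is Elovl1 (48.1 and 50.5 FPKM in control and Sema4D), for Cdk4 Tspan31 (79.4 and 79.7 FPKM), for Mcm7 Cops6 (76.4 and 80.1 FPKM) and for Ccna2 Exosc9 (11.6 and 11.8 FPKM). Ccne2, at 0.841 and 1.1 FPKM, shares bases with the far more abundant Ints8 (12.8 and 13.1 FPKM). Rb1, at 3.78 and 4.88 FPKM, shares bases with Rcbtb2 (14 and 12.7 FPKM) and Lpar6 (1.71 and 1.02 FPKM). Gadd45a shares bases with the non-coding gene E230016M11Rik, which stood at 5.47 and 7.62 FPKM.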

How the data were processed

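Total RNA of 3 control and 3 Sema4D libraries was sequenced, and the authors deposited FPKM per gene symbol, 1 column per library. The columns headed as stimulated were taken as the Sema4D libraries, semaphorin 4D being the one stimulation the labels name. TopHat2 2.0.13, Bowtie2 2.2.3, SAMtools 0.1.19, Cufflinks 2.2.1 and build mm10 are named in the submitters' processing notes, with no role or order. The annotation, strand setting, filters and any scaling across columns are not given in the sources used here.

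FPKM are not counts, so log2(FPKM + 1) of 11603 genes (mean over all libraries 1 FPKM or more) was fitted with limma 3.58.1 in R 4.3.3 (lmFit, eBayes with a trend, two-sided, no replicate block), with Benjamini-Hochberg adjustment over all of them and a threshold of 0.05. The fit was tested on simulated data with independent noise and far fewer changed genes than were called here. That test did not cover scaling differences or related libraries. Depth came from the low values among 1681 genes with 1 transcript over 2000 bases in GENCODE M21, which were 207 to 235 values per library. Between 79.5% and 84.8% of these low values came within 0.15 of a whole fragment number, too few to recover counts. In any pair of libraries 0.112% to 0.293% of values were identical, so no library was a repeat deposit. Tables and figures used Python 3.11.15, pandas 2.3.3 and matplotlib 3.10.9.

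The genes, their groups and the further lists were chosen with earlier results of these data known. Full statistics go to up to 4 called genes per group with the largest change and to Mki67, Cdk1, Pcna, Ccnd1 and Cdkn1a, and to the 3 genes of each further list with the smallest p. One listed symbol of the damage checkpoint list and 1 of the erythroid list had no match. Alternatives were a pseudocount of 0.1, other filters, 3 scalings, 2 variance models, a replicate block and leaving out each library. Promoter windows are RefSeq's for GRCm38.p6, and 30 of 41 matched a GENCODE transcript of the gene in the printed direction, with 0 in reverse.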

Additional observations from a re-analysis of the deposited data

How the results depend on the processing

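Over the 15 alternatives 11 to 15 cycle genes rose and 16 to 22 fell, and 28 of the 32 called genes kept their call and direction in every alternative that tested them. Leaving out each library in turn gave 12 to 15 rises and 16 to 19 falls. For the G2/M genes the falls were 9 to 12 and the rises 0 in every alternative.

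With a mean of at least 5 FPKM 2 G1 genes rose, fewer G1 genes being tested. The further lists gave 1 fall of E2F and pocket protein genes, 0 rises of mitosis genes, and 0 rises and 0 falls of damage checkpoint genes. The genes that left these counts were under that filter and so were not tested. Their means were 3.05 FPKM for E2f8, 4.78 for Cdc25a, 4.67 for Atr and 3.47 for Wee1. Columns scaled to the same sum gave falls of 5 replication genes, 10 ubiquitin ligase genes and 3 damage checkpoint genes and a rise of 1 ubiquitin ligase gene, and quantile normalization falls of 2 replication and 3 damage checkpoint genes. With no filter 0 damage checkpoint and 0 other inhibitor genes fell, and without a variance trend 3 ubiquitin ligase genes fell. The G1 median was 0.15 with no filter, -0.04 with a mean of at least 5 FPKM, 0.01 after quantile normalization and -0.01 with scaled columns. After quantile normalization and with scaled columns the medians were 0.07 and 0.06 for S phase, -0.26 and -0.29 for G2/M and 0.13 and 0.12 for the inhibitors. Quantile normalization and scaled columns moved the median of all genes by -0.055 and -0.077, and the values of 45 and 44 of the 45 cycle genes (not Cdk6 with scaled columns) were lower than in the reported fit. The cause of the other changes was not tested.

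Leaving out each library gave 1 to 2 S phase falls (1 without control replicate 1 or 3), 1 to 2 falls of E2F and pocket protein genes (1 without control replicate 1 or Sema4D replicate 2), 1 to 2 falls of replication genes (2 without control replicate 1 or 2) and 3 to 4 falls of ubiquitin ligase genes (3 without control replicate 2 or 3 or Sema4D replicate 1). It gave 1 to 2 rises of damage checkpoint genes (2 without Sema4D replicate 3), 0 to 1 falls of them (1 only without Sema4D replicate 2) and 0 to 2 falls of other inhibitor genes (0 without control replicate 1 or 2 or Sema4D replicate 2, and 2 without Sema4D replicate 3). The medians ran from -0.01 (without control replicate 2) to 0.17 (without control replicate 3) for G1, 0.09 to 0.15 for S phase, -0.23 to -0.17 for G2/M and 0.19 to 0.23 for the inhibitors.

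Deviations from the group means correlated across genes at r = 0.14, -0.0809 and -0.0544 between same-numbered libraries 1, 2 and 3, so the numbers were not taken to pair them. Control replicate 2 correlated best with Sema4D replicate 3 (0.136) and control replicate 3 with Sema4D replicate 2 (0.103), a hint from the data and not from the design, and no such pairing was fitted. With the replicate number as a replicate block 13 cycle genes rose and 17 fell, and 2638 of all genes rose and 2356 fell. The calls of Ccnd2 (adjusted p = 0.0712) and Tyms (0.0509) were lost under it.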

Other observations

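Histone genes, a list made after values were seen from every symbol that begins with Hist1h to Hist4h, H1f, H2a or H3f, hold the packaging proteins of newly copied DNA and their replacement variants. Of 84 symbols 18 had a mean of at least 1 FPKM, of which 2 rose (11.1%, against 24.5% of all tested genes), 9 fell (50%, against 22.2%) and 7 did not pass the threshold. These shares pool both kinds. Most falls were of replacement variants (H1f0, H1fx, H2afy2, H2afz, H3f3a and H3f3b), and the rest were Hist1h1c, Hist1h2bc and Hist2h2bb. The linker histone gene H1f0, typical of cells that have stopped dividing, fell from 98.4 ± 2.32 to 67.3 ± 1.59 FPKM (n = 3 per group, limma adjusted p = 2.46e-06), and H1fx, another linker histone gene, from 17.0 ± 1.26 to 9.74 ± 0.578 FPKM. The core histone gene Hist2h2bb fell from 26.3 ± 2.9 to 15.7 ± 1.78 FPKM. H2afj rose (10.7 ± 0.391 FPKM in control, 14.4 ± 1.98 FPKM with Sema4D), as did H2afy, a macroH2A gene (26.7 ± 0.923 and 31.2 ± 1.86 FPKM). The other macroH2A gene, H2afy2, went the opposite way, from 15.1 ± 0.537 to 10.4 ± 0.636 FPKM (limma adjusted p = 8.13e-05). The variant H2afx, used in marking DNA breaks, read 21.2 ± 1.1 and 18.7 ± 1.49 FPKM (adjusted p = 0.0544). Messages of the replication-dependent histone genes mostly lack a poly(A) tail, and how RNA was selected for the libraries was not given in the sources used here.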
